A study of Mus musculus with 8 samples.

Results

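The 34 genes described here belong to the interferon response and to antigen presentation by class I molecules in mouse embryonic stem (ES) cells. They were chosen by name, matched by mouse symbol to the Ensembl identifiers of the count tables, and all 34 were found among the 47069 genes listed. No measured value of these libraries enters that rule, but the list was drawn up with earlier results of the same data known. By role they are 3 sensors of foreign RNA, 6 transcription factors, 16 antiviral effectors and regulators, 3 immunoproteasome subunits, 3 peptide loading proteins and 3 class I molecules.

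Poly-A RNA was sequenced from 4 groups of 2 libraries: ES cells edited with Cas9 to lack Pcgf3 (Pcgf3KO), ES cells edited to lack Pcgf5 (Pcgf5KO), ES cells lacking both genes (DKO), and wild type cells (WT). Pcgf3 and Pcgf5 encode RING finger subunits of variant Polycomb repressive complexes, which modify histones at silent genes. All 4 groups were of strain C57BL/6 and were grown in fetal calf serum with leukemia inhibitory factor on embryonic fibroblasts that mitomycin-C had stopped from dividing. No interferon or virus is named in the labels. The labels do not say how many edited clones a group stands for, nor whether the 2 libraries of a group came from separate cultures, so p-values measure the spread between these libraries, which may be technical.

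Cytoplasmic sensors such as RIG-I (the product of Ddx58) recognise viral RNA and, through Irf3 and Irf7, switch on interferon genes. Secreted interferon then acts through its receptor on factors that include Stat2 and Irf9, which bind the interferon-stimulated response element (ISRE) near antiviral genes, while Irf1 and Nlrc5 act on the genes of antigen presentation. Pluripotent stem cells are known for a weak interferon response. As background, class I molecules carry peptides to the cell surface, where cytotoxic T cells inspect them.

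The 7 libraries with complete tables held 12652616 to 19923964 counts each. The table of WT replicate 1 breaks off after 8093 genes, 17.2% of the list, and covers 4 of the 34 genes (Oas1a, Bst2, Psmb9 and H2-D1), so the comparisons below rest on 7 libraries with WT replicate 2 as the only WT library unless 8 libraries are named. Replicates correlated at 0.997 (Pcgf3KO), 0.997 (Pcgf5KO) and 0.991 (DKO) in log2 CPM (counts scaled to the size of the library) across genes, and the DKO libraries stood furthest apart. Pcgf3 had 66.0 and 60.5 CPM in Pcgf3KO, 86.6 and 67.2 CPM in DKO and 109.7 CPM in WT. Pcgf5 had 12.3 and 9.06 CPM in Pcgf5KO, 13.5 and 13.9 CPM in DKO and 20.7 CPM in WT. The test called Pcgf3 lower in Pcgf3KO (log2 fold change -0.79 ± 0.14 SE, edgeR adjusted p = 0.0210) and Pcgf5 lower in Pcgf5KO (-0.94 ± 0.18, edgeR adjusted p = 0.0292), whereas in DKO cells neither difference passed the test (edgeR adjusted p = 0.0899 for Pcgf3 and 0.114 for Pcgf5). ES cell markers were present in every library, with Pou5f1 between 195.6 and 260.9 CPM.

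The promoter windows below, from 250 bases before to 50 after the gene start on the sense strand, are shown for Ddx58, Oas1a and B2m, which passed a test, for Oas1g, a near copy of Oas1a, and for H2-K1 and H2-D1, the heavy chain genes described with B2m. Bst2 is shown for its level, the highest per length, and did not pass against WT with 7 or with 8 libraries. They are RefSeq windows of build GRCm38.p6. Capitals mark the ISRE core, searched as GAAANNGAAA on both strands. The windows lie at chr4:40239776-40240075 (Ddx58), chr5:120907476-120907775 (Oas1a), chr5:120887564-120887863 (Oas1g), chr8:71537423-71537722 (Bst2), chr2:122147437-122147736 (B2m), chr17:34000298-34000597 (H2-K1, 1 of its 2 windows) and chr17:35262844-35263143 (H2-D1), with B2m and H2-D1 on the plus strand and the others on the minus strand.
Ddx58: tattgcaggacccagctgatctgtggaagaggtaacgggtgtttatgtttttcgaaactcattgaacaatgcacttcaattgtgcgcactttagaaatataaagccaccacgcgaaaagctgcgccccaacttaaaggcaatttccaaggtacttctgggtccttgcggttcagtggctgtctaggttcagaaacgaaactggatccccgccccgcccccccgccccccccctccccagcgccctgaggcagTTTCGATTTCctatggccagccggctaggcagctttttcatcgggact
Oas1a: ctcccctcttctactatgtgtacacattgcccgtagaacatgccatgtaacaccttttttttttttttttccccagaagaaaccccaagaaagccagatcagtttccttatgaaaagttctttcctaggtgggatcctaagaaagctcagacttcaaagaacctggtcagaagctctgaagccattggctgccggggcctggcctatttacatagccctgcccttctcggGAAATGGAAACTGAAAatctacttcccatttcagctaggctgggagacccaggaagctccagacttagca
Oas1g: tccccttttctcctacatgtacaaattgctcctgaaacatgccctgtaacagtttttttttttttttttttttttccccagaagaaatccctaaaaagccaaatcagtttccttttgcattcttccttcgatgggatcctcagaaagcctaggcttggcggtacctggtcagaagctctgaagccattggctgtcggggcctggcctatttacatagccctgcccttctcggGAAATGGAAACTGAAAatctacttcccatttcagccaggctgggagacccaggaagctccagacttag
Bst2: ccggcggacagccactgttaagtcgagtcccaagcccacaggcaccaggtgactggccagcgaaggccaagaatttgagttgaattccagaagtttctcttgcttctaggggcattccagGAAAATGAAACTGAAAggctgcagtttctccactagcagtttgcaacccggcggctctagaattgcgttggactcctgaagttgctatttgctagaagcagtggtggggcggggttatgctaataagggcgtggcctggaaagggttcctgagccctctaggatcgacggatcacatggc
B2m: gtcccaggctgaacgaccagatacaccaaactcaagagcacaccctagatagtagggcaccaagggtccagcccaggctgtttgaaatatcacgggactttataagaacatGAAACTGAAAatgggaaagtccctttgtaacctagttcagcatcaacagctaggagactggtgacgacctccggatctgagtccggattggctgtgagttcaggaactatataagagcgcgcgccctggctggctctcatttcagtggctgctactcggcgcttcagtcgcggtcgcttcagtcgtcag
H2-K1: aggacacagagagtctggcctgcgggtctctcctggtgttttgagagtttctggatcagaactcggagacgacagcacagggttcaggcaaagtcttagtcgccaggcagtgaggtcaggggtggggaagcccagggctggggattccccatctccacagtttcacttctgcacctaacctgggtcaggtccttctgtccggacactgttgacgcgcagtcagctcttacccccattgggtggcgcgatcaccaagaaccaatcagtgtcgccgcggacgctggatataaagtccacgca
H2-D1: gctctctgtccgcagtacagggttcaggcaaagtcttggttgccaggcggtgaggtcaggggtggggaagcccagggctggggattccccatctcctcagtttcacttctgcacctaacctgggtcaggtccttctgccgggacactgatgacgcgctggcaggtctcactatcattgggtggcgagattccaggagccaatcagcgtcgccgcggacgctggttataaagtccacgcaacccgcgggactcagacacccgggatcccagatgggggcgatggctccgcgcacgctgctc

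In Ddx58 the core lies on the opposite strand, starting at base 3 of the gene. Oas1a and Oas1g hold the same overlapping pair of cores, which starts at base -20 of Oas1a and -18 of Oas1g, and their windows share an identical run of 73 bases. Bst2, which encodes the virus-tethering protein tetherin, also holds an overlapping pair, starting at base -130, and B2m holds 1 core at base -139. The windows of H2-K1 and H2-D1 hold no exact match to GAAANNGAAA, so they have no capitals. Both hold the run agtttcacttctgc, which comes close to that pattern on the opposite strand. Windows were found for 27 of the 34 genes, and those of Dhx58, Nlrc5, Mx1, Usp18, Parp9, Parp14 and Tap2 are not shown. The core was found in 11 of the 27 genes (40.7%): B2m, Bst2, Ddx58, Eif2ak2, Ifih1, Ifit1, Ifit3, Isg15, Oas1a, Rsad2 and Stat2. Of all 27025 genes with a window, 3.99% hold it. The gamma-activated site, searched as TTCNNNGAA on both strands, was found in 7 of the 27 genes (25.9%), against 9.55% of all genes. A match describes the letters of a window and not a bound site, and the lack of an exact match does not show that an element is absent.

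In these bulk libraries several antiviral effectors that are strongly induced by interferon were at or near 0, while tetherin, Trim25 and the class I molecules were well expressed. How much of this RNA came from ES cells and how much from the fibroblasts beneath them was not tested. Per kilobase of exon, the gene with the highest level was Bst2, at 65.9 CPM per kb in the median library of 7. Trim25, a ubiquitin ligase that acts on RIG-I, was at 52.7 CPM per kb, B2m at 32.9, the class I heavy chain gene H2-K1 at 21.3 and Ddx58 at 10.7 CPM per kb. The median of all genes tested was 3.78 CPM per kb, and 15 of the 27 tested genes of the list lay above it.

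The other 7 genes did not pass the filter on low counts. These were Irf7, which amplifies interferon production, Isg15, a ubiquitin-like modifier, Usp18, the protease that removes it, the antiviral proteins Ifit3, Rsad2 and Mx1, and the immunoproteasome subunit Psmb8. Their counts over 7 libraries summed to 1 to 33 per gene, with at most 9 counts in 1 library. A count of 3 corresponds to 0.148 to 0.243 CPM depending on the library, which is the limit that 0 counts allow (counting error only), so levels and differences below that were not detectable. Of 21 interferon ligand genes in the tables, looked up after the values were seen, 19 had 0 counts in all 7 libraries and the highest total was 4 counts.

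**Figure D1:**
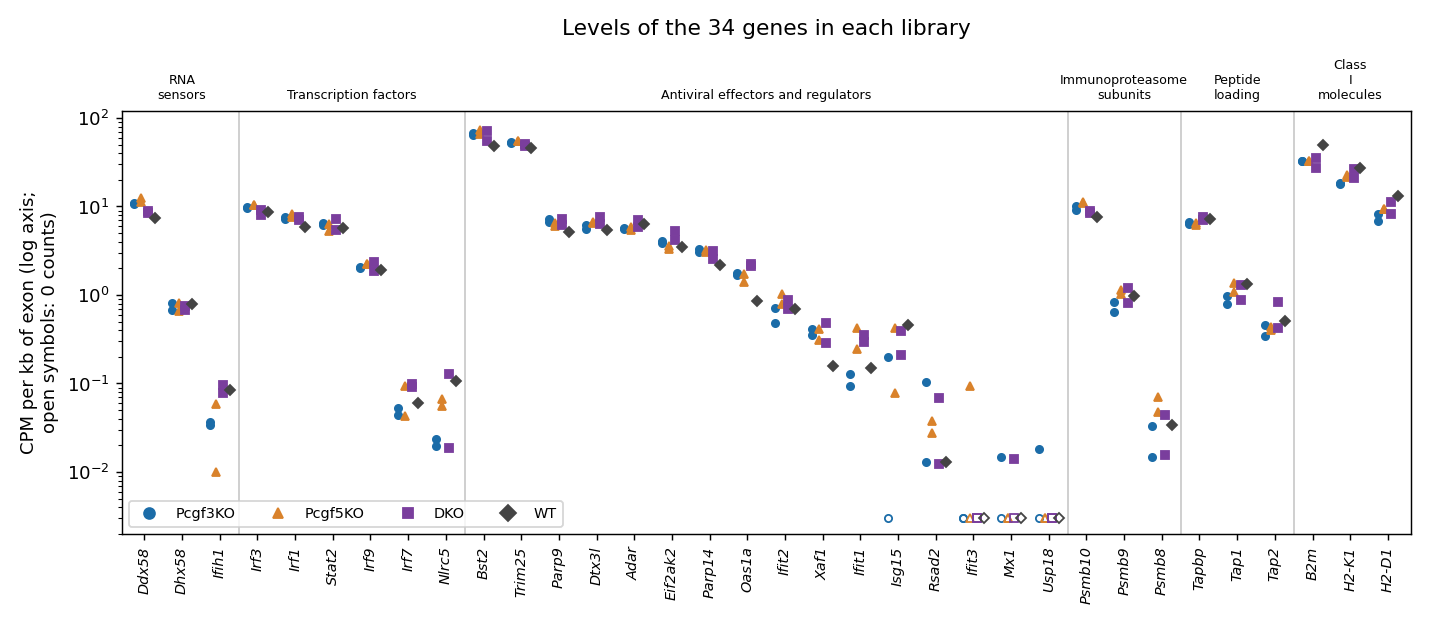
Level of each of the 34 genes in the 7 complete libraries, as CPM per kb of exon on a log axis, with open symbols at the bottom for 0 counts and genes grouped by role. Bst2, Trim25, B2m and H2-K1 have the highest medians (65.9, 52.7, 32.9 and 21.3 CPM per kb), and Ifit3, Mx1 and Usp18 have 0 counts in most libraries.

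Against WT, few of these genes passed the test in any knockout. In Pcgf3KO cells 1 of 27 was higher (Ddx58) and 0 lower, where 2.36% of all 15669 genes tested passed (1.08% higher, 1.28% lower). In Pcgf5KO cells 1 of 27 was higher (again Ddx58) and 0 lower, where 2.99% of all genes passed (1.31% higher, 1.68% lower). In DKO cells 1 of 27 was higher (Oas1a) and 1 lower (B2m), where 3.22% of all genes passed (1.33% higher, 1.89% lower). These shares are near the background, and beside each count of 0 lower DESeq2 found 2 lower in Pcgf3KO and 0 in Pcgf5KO.

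The median log2 fold change over the 27 genes was 0.09 in Pcgf3KO, 0.23 in Pcgf5KO and 0.17 in DKO, against 0.00, 0.00 and 0.01 over all genes. By direction alone, 12 genes had a positive fitted fold change in all 3 knockouts, 6 a negative one in all 3, and 9 differed between knockouts. The 3 comparisons share their WT library, so they are not independent of each other. No share of all genes stands beside these direction counts, so they are description only. At an unadjusted p of at most 0.05 there were 12, 10 and 10 of 27 genes in Pcgf3KO, Pcgf5KO and DKO, where 15.9%, 19.5% and 19.4% of all genes reached it. Both libraries of a group lay above the WT library for 14 genes in Pcgf3KO (40.4% of all genes), 15 in Pcgf5KO (41.8%) and 12 in DKO (35%), and both lay below it for 11 (40.6%), 8 (41%) and 5 genes (34.6%).

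The number of genes that passed depended on which libraries entered the fit, as it did for all genes. Without DKO replicate 1, 13 of 27 genes passed in Pcgf3KO (20.6% of all genes), 14 in Pcgf5KO (26.8%) and 4 in DKO (16.2%). Without DKO replicate 2, 13 passed in Pcgf3KO (20.2% of all genes), 14 in Pcgf5KO (26.4%) and 13 in DKO (34.5%). Without any 1 of the Pcgf3KO or Pcgf5KO libraries, no gene of the list passed in any of these comparisons.

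**Figure D2:**
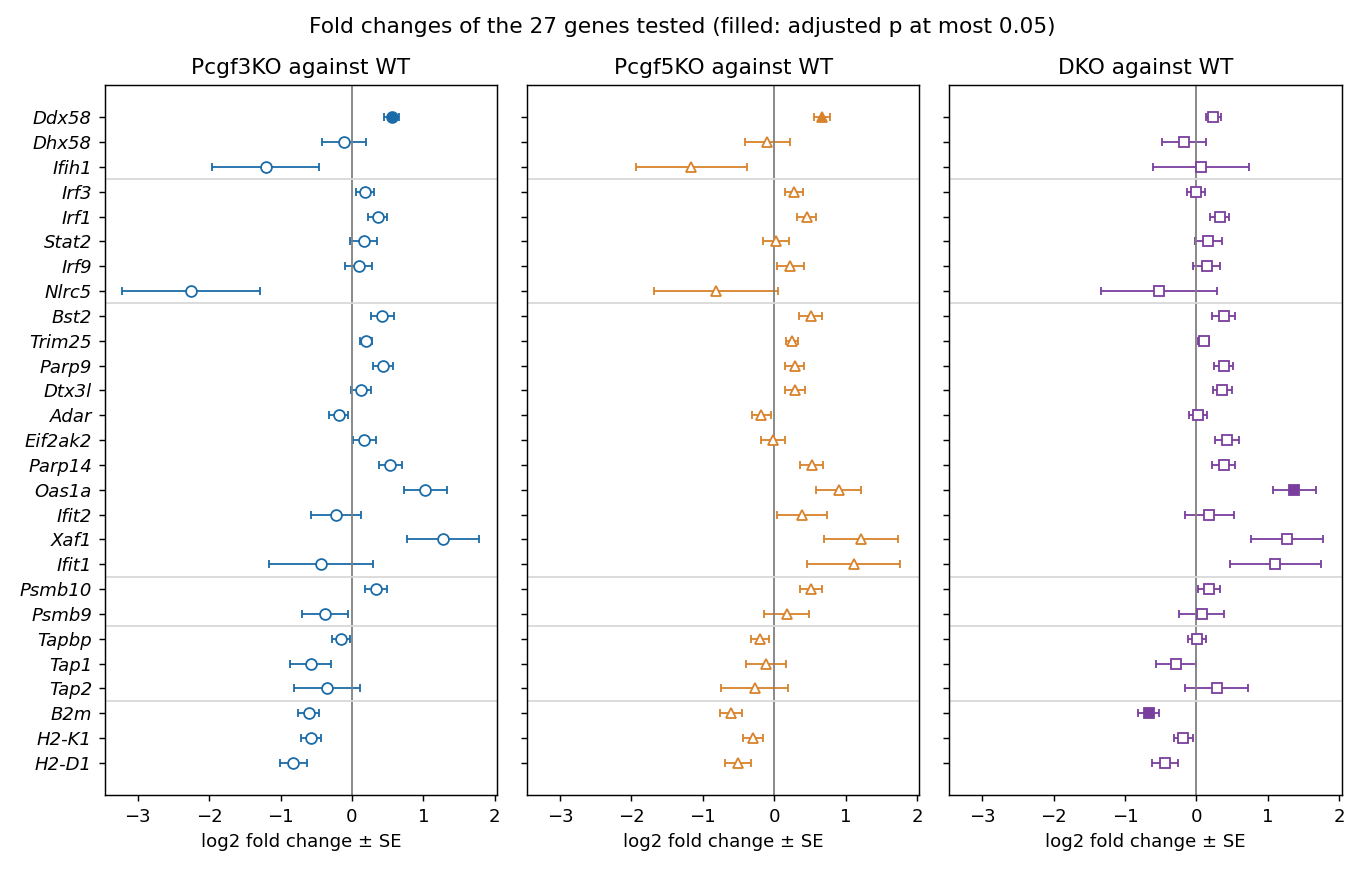
Log2 fold change ± SE of the 27 tested genes in Pcgf3KO, Pcgf5KO and DKO cells, each against WT, with filled symbols where the adjusted p is at most 0.05. Ddx58 is filled in Pcgf3KO and Pcgf5KO (0.56 and 0.67), Oas1a and B2m in DKO (1.37 and -0.67), and the 3 class I molecules lie left of 0 in every panel.

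Ddx58 (ENSMUSG00000040296, mm10 chr4:40203773-40239828) encodes RIG-I, the sensor of viral RNA ends. It had 75.5 and 78.0 CPM in Pcgf3KO, 86.8 and 79.2 CPM in Pcgf5KO, 60.1 and 62.8 CPM in DKO, and 52.2 CPM in WT. All 6 knockout libraries lay above the WT library, and both DKO libraries lay below all 4 libraries of the single knockouts. Ddx58 rose in Pcgf3KO (log2 fold change 0.56 ± 0.11 SE, edgeR adjusted p = 0.0327) and in Pcgf5KO (0.67 ± 0.11, edgeR adjusted p = 0.0158), while in DKO the fold change was 0.24 ± 0.11 (edgeR adjusted p = 0.268).

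DKO cells had less Ddx58 RNA than Pcgf5KO cells (-0.43 ± 0.09, edgeR adjusted p = 0.0412), and against Pcgf3KO the difference was -0.32 ± 0.09 (edgeR adjusted p = 0.103). The difference between the effect of Pcgf3 loss in Pcgf5KO cells and its effect in unedited cells was tested directly, as a comparison added after the data were seen. It was -0.99 ± 0.14 for Ddx58 (edgeR adjusted p = 0.00821), so the DKO level lay below the sum of the single changes. Ddx58 was the only 1 of 27 genes past the threshold there, where 3.79% of all genes passed (1.77% higher, 2.02% lower). It was not alone among related genes. Of 33 other interferon-stimulated genes tested, 5 passed there as lower and 0 as higher. Of 14 interferon receptor and signalling genes, 1 passed as lower and 0 as higher. All 4 of these Ddx58 calls ended when any 1 Pcgf3KO or Pcgf5KO library was left out (edgeR adjusted p between 0.0612 and 0.370), with fold changes that kept their sign.

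Ifih1 encodes MDA5, the sensor of long double-stranded RNA, and was close to the limit of detection. It had 6 and 5 counts in Pcgf3KO, 8 and 1 in Pcgf5KO, 15 and 13 in DKO, and 12 in WT. Dhx58, which encodes the regulator LGP2, lay between 2.18 and 2.66 CPM in all 7 libraries, and its groups overlapped.

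**Figure D3:**
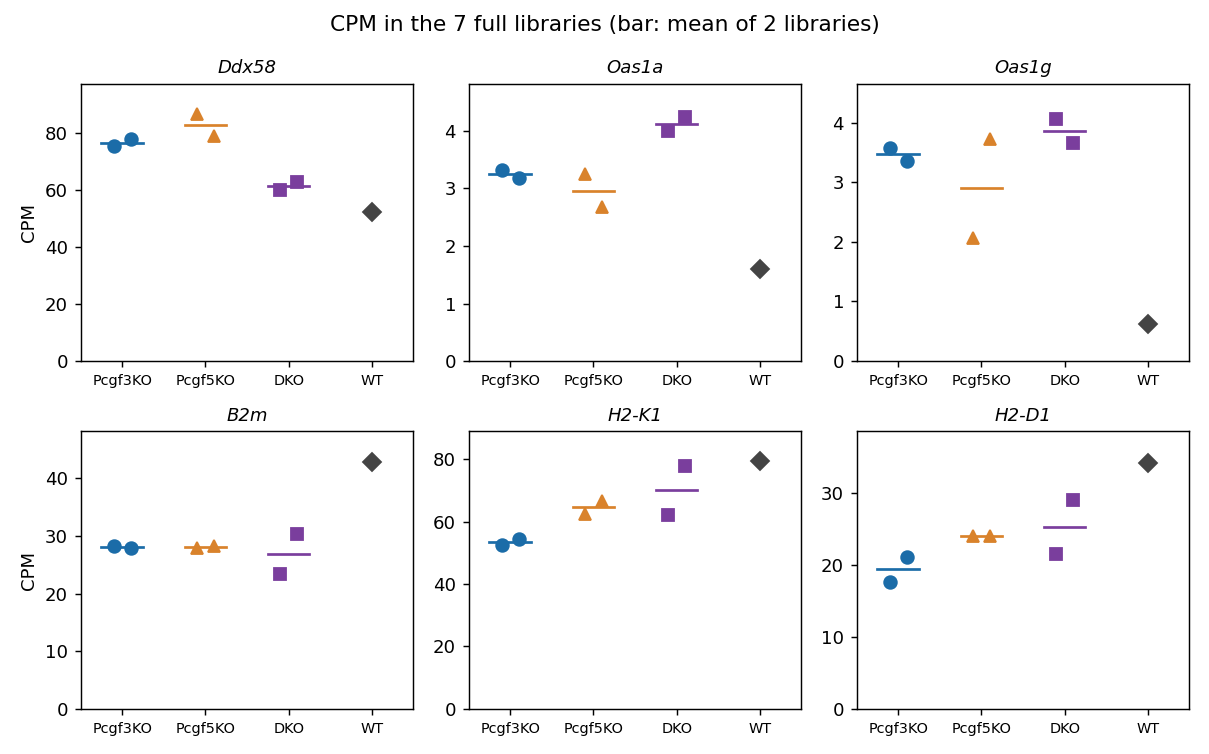
CPM of Ddx58, Oas1a, Oas1g, B2m, H2-K1 and H2-D1 in the 7 complete libraries, with 1 point a library and a bar at the mean of 2 libraries. Ddx58 is highest in Pcgf5KO (86.8 and 79.2 CPM), Oas1a and Oas1g are lowest in WT (1.59 and 0.626 CPM), and the class I genes are highest in WT.

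None of the 5 transcription factors tested passed against WT with edgeR, and 2, 1 and 1 of them reached an unadjusted p of 0.05 in Pcgf3KO, Pcgf5KO and DKO. Of all genes, 15.9%, 19.5% and 19.4% reached it in these groups. Irf1, a factor that responds to interferon gamma, had 30.5 and 28.7 CPM in Pcgf3KO, 33.1 and 29.9 CPM in Pcgf5KO, 30.0 and 27.8 CPM in DKO, and 23.1 CPM in WT. Every knockout library lay above the WT library, with log2 fold changes of 0.36 ± 0.13, 0.45 ± 0.13 and 0.33 ± 0.13 in Pcgf3KO, Pcgf5KO and DKO (edgeR adjusted p = 0.216, 0.113 and 0.217). Irf3, the factor that the RNA sensors activate, ranged from 27.5 CPM in DKO replicate 1 to 36.1 CPM in Pcgf5KO replicate 2, with WT at 29.6 CPM. Stat2 ranged from 31.0 to 43.2 CPM and Irf9 from 10.1 to 12.5 CPM, and both DKO libraries straddled the WT level for each.

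Nlrc5 encodes the transactivator of class I genes. It had 4 and 3 counts in Pcgf3KO, 8 and 7 in Pcgf5KO, 3 and 22 in DKO, and 16 in WT. The DKO replicates were thus further apart than any pair of groups, and the Pcgf3KO difference from WT (-2.25 ± 0.96, edgeR adjusted p = 0.290) did not pass.

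Oas1a (ENSMUSG00000052776, mm10 chr5:120896256-120907521) encodes an oligoadenylate synthetase, whose product activates RNase L. It had 3.33 and 3.19 CPM in Pcgf3KO, 3.25 and 2.67 CPM in Pcgf5KO, 4.005 and 4.25 CPM in DKO, and 1.59 CPM (28 counts) in WT. The 6 knockout libraries all lay above the WT library, with the DKO libraries highest. Oas1a rose in DKO (log2 fold change 1.37 ± 0.30, edgeR adjusted p = 0.0422), and the fold changes of 1.03 ± 0.31 in Pcgf3KO and 0.90 ± 0.31 in Pcgf5KO did not pass (edgeR adjusted p = 0.129 and 0.164). The DKO call ended with DESeq2 (adjusted p = 0.115) and without any 1 Pcgf3KO or Pcgf5KO library (edgeR adjusted p between 0.102 and 0.118).

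Since the table of WT replicate 1 lists Oas1a, its WT level could also be read in 2 libraries. Scaled to the genes listed in all 8 tables, Oas1a had 18.7 and 18.01 CPM in Pcgf3KO, 18.3 and 14.9 CPM in Pcgf5KO, 22.6 and 24.0 CPM in DKO, and 4.0 and 8.99 CPM in WT. No knockout library overlapped the WT libraries, although the ratio between the WT libraries was larger than that between the replicates of any other group. With 8 libraries the rise passed in all 3 knockouts, at 1.52 ± 0.33 in Pcgf3KO, 1.38 ± 0.35 in Pcgf5KO and 1.86 ± 0.33 in DKO (edgeR adjusted p = 0.0237, 0.0333 and 0.00621). Of the 4 listed genes tested with 8 libraries, 1 was higher and 1 lower in Pcgf3KO, where 5.51% of all 2702 genes tested passed (3.18% higher, 2.33% lower). In Pcgf5KO 1 was higher, where 8.62% passed (4.33% higher, 4.29% lower), and in DKO 1 was higher, where 8.11% passed (4.4% higher, 3.7% lower). Leaving out each of the 8 libraries in turn, the DKO rise passed in 7 of 8 cases (without WT replicate 1 the edgeR adjusted p was 0.0612), the Pcgf3KO rise in 5 and the Pcgf5KO rise in 3. The Pcgf3KO rise ended without WT replicate 1 or either Pcgf3KO library (highest edgeR adjusted p = 0.151). The Pcgf5KO rise ended without WT replicate 1 or any 1 Pcgf3KO or Pcgf5KO library (highest edgeR adjusted p = 0.242).

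Oas1a shares 57.6% of its 50-base exon windows with Oas1g, so reads could be assigned to either gene or lost, depending on how the authors counted. Oas1g, described after its values were seen, had 3.58 and 3.36 CPM in Pcgf3KO, 2.07 and 3.72 CPM in Pcgf5KO, 4.06 and 3.66 CPM in DKO, and 0.626 CPM (11 counts) in WT. It rose in all 3 knockouts, with log2 fold changes of 2.46 ± 0.46 in Pcgf3KO, 2.16 ± 0.48 in Pcgf5KO and 2.61 ± 0.46 in DKO (edgeR adjusted p = 0.0280, 0.0467 and 0.0192). Summed over both genes, the level was 6.90 and 6.54 CPM in Pcgf3KO, 5.33 and 6.39 CPM in Pcgf5KO, 8.06 and 7.91 CPM in DKO, and 2.22 CPM in WT. The sum lay above WT in all 6 knockout libraries, and no test was made on it.

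**Figure D4:**
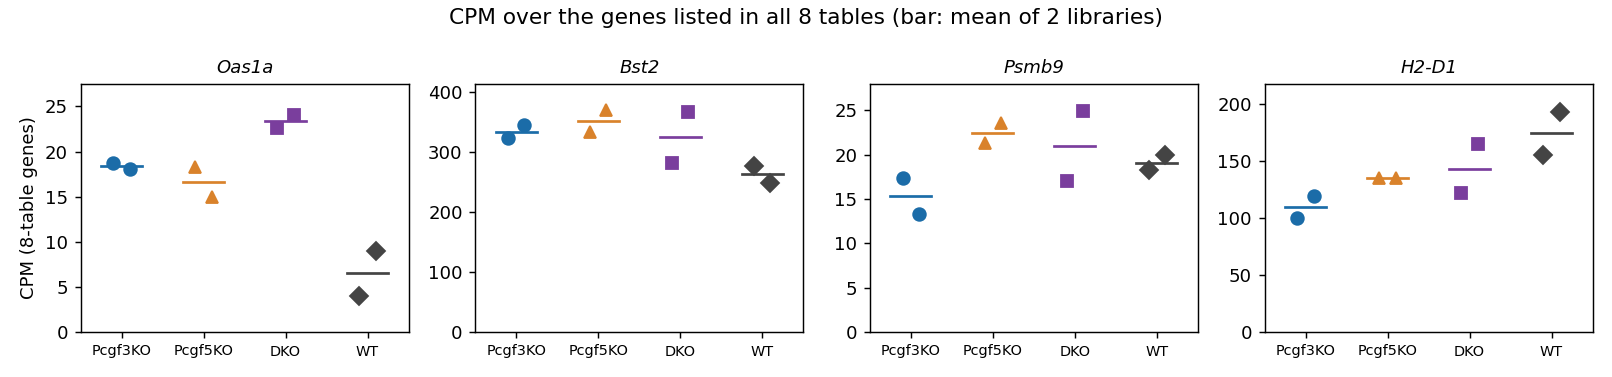
CPM, scaled to the genes listed in all 8 tables, of the 4 genes that WT replicate 1 lists, with 1 point a library and a bar at the mean of 2. The 6 knockout libraries lie between 14.9 and 24.0 CPM for Oas1a, above both WT libraries (4.0 and 8.99 CPM). For Psmb9, the Pcgf3KO libraries lie below both WT libraries, the Pcgf5KO libraries above them and the DKO libraries on either side.

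The other 10 antiviral effectors and regulators tested did not pass against WT in any knockout, and their changes were small where their levels were high. Bst2 had 57.2 and 61.0 CPM in Pcgf3KO, 59.5 and 66.2 CPM in Pcgf5KO, 49.8 and 64.8 CPM in DKO, and 44.1 CPM in WT. All knockout libraries lay above WT, with log2 fold changes of 0.42 ± 0.16, 0.51 ± 0.16 and 0.38 ± 0.16 (edgeR adjusted p = 0.227, 0.134 and 0.232) in Pcgf3KO, Pcgf5KO and DKO. With both WT libraries the fold changes of Bst2 were 0.34 ± 0.12, 0.42 ± 0.12 and 0.30 ± 0.12 (edgeR adjusted p = 0.137, 0.0635 and 0.153). Trim25 had 303 and 305.8 CPM in Pcgf3KO, 312 and 317 CPM in Pcgf5KO, 289 and 279.5 CPM in DKO, and 265 CPM in WT.

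Parp9 and Dtx3l encode partners in an ADP-ribosylating and ubiquitin-ligating complex, and Parp14 belongs to the same family as Parp9. Parp14 had 30.8 and 28.2 CPM in Pcgf3KO, 28.2 and 30.3 CPM in Pcgf5KO, 29.4 and 23.5 CPM in DKO, and 20.3 CPM in WT. Its fold change was 0.54 ± 0.16 in Pcgf3KO, 0.52 ± 0.16 in Pcgf5KO and 0.38 ± 0.16 in DKO (edgeR adjusted p = 0.132, 0.130 and 0.237). Parp9 ranged from 29.6 to 34.9 CPM in the 6 knockout libraries, against 25 CPM in WT, and Dtx3l from 31.9 to 43.0 CPM, against 30.8 CPM in WT. Parp9 and Dtx3l overlap on opposite strands, and with an unstranded library kit the reads of the shared stretch cannot be assigned to 1 of them.

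Xaf1, a pro-apoptotic interferon-induced gene, had 1.66 and 1.96 CPM in Pcgf3KO, 1.95 and 1.46 CPM in Pcgf5KO, 2.27 and 1.33 CPM in DKO, and 0.740 CPM (13 counts) in WT. Its fold changes of 1.28 ± 0.50, 1.21 ± 0.51 and 1.27 ± 0.50 did not pass (edgeR adjusted p = 0.249, 0.237 and 0.211), and all 6 knockout libraries lay above WT. Eif2ak2, which encodes the kinase PKR that blocks translation on viral RNA, had 20.7 and 19.7 CPM in Pcgf3KO, 18.4 and 17.0 CPM in Pcgf5KO, 26.7 and 21.5 CPM in DKO, and 17.9 CPM in WT. Adar, which edits adenosine in double-stranded RNA, ranged from 43.5 to 57.2 CPM with WT at 51.6 CPM, and its exons overlap Chrnb2 on the other strand. Ifit1, which binds foreign RNA, had 5 and 6 counts in Pcgf3KO, 11 and 14 in Pcgf5KO, 15 and 19 in DKO, and 7 in WT. Ifit2 ranged from 1.90 to 4.02 CPM. Both Pcgf5KO libraries (4.02 and 3.07 CPM) lay above WT (2.73 CPM) and above both Pcgf3KO libraries (2.77 and 1.90 CPM). The DKO libraries (3.48 and 2.72 CPM) lay on either side of WT.

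Of the immunoproteasome subunits, which replace constitutive subunits to make peptides suited to class I molecules, 2 of 3 could be tested and neither passed. Psmb10 had 15.6 and 17.4 CPM in Pcgf3KO, 19.0 and 18.4 CPM in Pcgf5KO, 15.2 and 14.4 CPM in DKO, and 13.1 CPM in WT. All 6 knockout libraries lay above WT, and the Pcgf5KO fold change was 0.52 ± 0.15 (edgeR adjusted p = 0.117). Psmb9 ranged from 2.35 to 4.40 CPM, and its groups overlapped with 7 libraries and with 8. Per kilobase the constitutive subunits were higher, at 54.1 (Psmb5), 169.7 (Psmb6) and 31.8 CPM per kb (Psmb7) in the median library, against 9.13 (Psmb10), 0.964 (Psmb9) and 0.0337 CPM per kb (Psmb8).

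None of the 3 peptide loading genes passed against WT with edgeR, and 0 reached an unadjusted p of 0.05. Of all genes, 15.9%, 19.5% and 19.4% reached it in Pcgf3KO, Pcgf5KO and DKO. Tapbp encodes tapasin, which holds class I molecules at the peptide transporter, and it ranged from 22.2 to 27.5 CPM with WT at 26.3 CPM. Tap1 encodes 1 chain of that transporter and had 4.33 and 5.37 CPM in Pcgf3KO, 5.92 and 7.52 CPM in Pcgf5KO, 4.74 and 7.12 CPM in DKO, and 7.23 CPM in WT. Tap2, the other chain, had 1.31 and 1.73 CPM in Pcgf3KO, 1.66 and 1.54 CPM in Pcgf5KO, 1.58 and 3.11 CPM in DKO, and 1.94 CPM in WT, with the DKO replicates on either side of WT. The exons of Psmb9 and Tap1 overlap each other on opposite strands, and those of Tap2 and Tapbp overlap other genes of the opposite strand, so these counts may include reads of the partner.

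All 3 class I molecules were lower in every knockout library than in WT replicate 2, and 1 of these differences passed the test. Both libraries of a group also lay below that WT library for 40.6%, 41% and 34.6% of all genes in Pcgf3KO, Pcgf5KO and DKO. B2m (ENSMUSG00000060802, mm10 chr2:122147686-122153083) encodes the light chain that all class I molecules need. It had 28.3 and 27.8 CPM in Pcgf3KO, 28.0 and 28.3 CPM in Pcgf5KO, 23.4 and 30.3 CPM in DKO, and 42.8 CPM in WT. B2m fell in DKO (log2 fold change -0.67 ± 0.15, edgeR adjusted p = 0.0453), and the differences of -0.61 ± 0.15 in Pcgf3KO and -0.61 ± 0.15 in Pcgf5KO did not pass (edgeR adjusted p = 0.0727 and 0.0725). The DKO call ended without any 1 Pcgf3KO or Pcgf5KO library (edgeR adjusted p between 0.121 and 0.128), and WT replicate 1 does not list the gene.

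The heavy chain gene H2-K1 had 52.4 and 54.5 CPM in Pcgf3KO, 62.4 and 66.6 CPM in Pcgf5KO, 62.1 and 77.8 CPM in DKO, and 79.4 CPM in WT. The Pcgf3KO libraries were lowest, with a fold change of -0.57 ± 0.14 (edgeR adjusted p = 0.0640), which passed with DESeq2 (adjusted p = 0.0250). The second heavy chain gene, H2-D1, had 17.7 and 21.1 CPM in Pcgf3KO, 24.0 and 24.0 CPM in Pcgf5KO, 21.4 and 29.1 CPM in DKO, and 34.2 CPM in WT. Its fold changes were -0.82 ± 0.18 in Pcgf3KO, -0.51 ± 0.18 in Pcgf5KO and -0.44 ± 0.18 in DKO (edgeR adjusted p = 0.0530, 0.177 and 0.229), and the Pcgf3KO difference passed with DESeq2 (adjusted p = 0.0131). Of the 50-base exon windows, 12.8% in H2-D1 and 9.63% in H2-K1 also occur in other genes, chiefly other class I heavy chain genes, so their counts are uncertain to that extent.

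H2-D1 is listed by WT replicate 1. Scaled to the genes of all 8 tables it had 99.6 and 119.4 CPM in Pcgf3KO, 134.5 and 134.4 CPM in Pcgf5KO, 121.3 and 164.3 CPM in DKO, and 154.6 and 193.0 CPM in WT. The Pcgf3KO and Pcgf5KO libraries lay below both WT libraries, and the DKO libraries overlapped them. H2-D1 fell in Pcgf3KO in this fit (-0.67 ± 0.16, edgeR adjusted p = 0.0385), but that call held in only 2 of 8 cases when 1 library was left out, those without a DKO library (highest edgeR adjusted p = 0.301). The differences of -0.37 ± 0.16 in Pcgf5KO and -0.28 ± 0.16 in DKO did not pass (edgeR adjusted p = 0.186 and 0.294).

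Fibroblasts express class I genes, and markers of the feeder fibroblasts also differed between the groups. The 3 class I molecules summed to 98.4 and 103.5 CPM in Pcgf3KO, 114.4 and 119.0 CPM in Pcgf5KO, 107.0 and 137.2 CPM in DKO, and 156.5 CPM in WT. The 23 feeder markers summed to 870.6 and 876 CPM in Pcgf3KO, 1159 and 1215 CPM in Pcgf5KO, 1283 and 1152 CPM in DKO, and 1323 CPM in WT. Most of each sum was Fn1, which WT replicate 1 also lists. Scaled to the genes of all 8 tables, Fn1 had 4172 and 4138 CPM in Pcgf3KO and 5587 and 5851 CPM in Pcgf5KO. It had 6432 and 5506 CPM in DKO, and 4589 and 6154 CPM in WT replicates 1 and 2. WT replicate 1 thus lay below every Pcgf5KO and DKO library for Fn1, so the high WT sum rests on WT replicate 2. For Col5a1 and Col6a1, named after their values were seen, both WT libraries lay above every single knockout library. Scaled likewise, Col5a1 had 111.5 and 124.5 CPM in Pcgf3KO, 140.8 and 153.8 CPM in Pcgf5KO, and 166.9 and 186.9 CPM in WT. Col6a1 had 22.7 and 22.75 CPM in Pcgf3KO, 21.6 and 24.0 CPM in Pcgf5KO, and 32.3 and 37.6 CPM in WT. DKO had 162.4 and 198.7 CPM for Col5a1 and 40.2 and 43.3 CPM for Col6a1. Of the 19 feeder markers tested, 6 were lower in Pcgf3KO, 1 in Pcgf5KO and 5 in DKO. Of all genes tested, 1.28%, 1.68% and 1.89% were lower in these groups, and 1.08%, 1.31% and 1.33% were higher. None of the 19 passed as higher with edgeR, although 1, 2 and 5 of them had a positive fitted fold change in Pcgf3KO, Pcgf5KO and DKO. The highest was that of Col6a3 in DKO (1.42 ± 0.48, edgeR adjusted p = 0.160). The collagen gene Col1a1 had 5.19 and 6.60 CPM in Pcgf3KO, 7.34 and 7.93 CPM in Pcgf5KO, 5.32 and 6.92 CPM in DKO, and 16.2 CPM in WT. None of the 23 markers was at 0 in all 7 libraries, though Postn was at 0 in Pcgf3KO replicate 1 and DKO replicate 1. The part of the feeder cells in the class I differences was not tested, and in these bulk libraries fewer cells of a type and less RNA per cell cannot be told apart.

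The 8 leukocyte markers summed to 54.0 and 48.7 CPM in Pcgf3KO, 45.7 and 46.8 CPM in Pcgf5KO, 25.8 and 34.5 CPM in DKO, and 39.8 CPM in WT. Most of each sum was Cd68, a lysosomal protein of macrophages, with 51.9 and 46.8 CPM in Pcgf3KO, 43.8 and 44.2 CPM in Pcgf5KO, 23.1 and 31.5 CPM in DKO, and 37.9 CPM in WT. Of the 8 markers 3 could be tested, and with edgeR none passed against WT. Cd68 was lower in DKO than in Pcgf3KO (-0.85 ± 0.14, edgeR adjusted p = 0.0198) and than in Pcgf5KO (-0.68 ± 0.14, edgeR adjusted p = 0.0440), with both DKO libraries below all 4 single knockout libraries, as for Ddx58. It also lay below the sum of the single changes (-1.06 ± 0.22, edgeR adjusted p = 0.0322). Ptprc, the common leukocyte antigen, lay between 0.0569 and 0.403 CPM, and Tyrobp had 0 counts in every library but Pcgf3KO replicate 1. The part of leukocytes in these results was not tested.

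**Figure D5:**
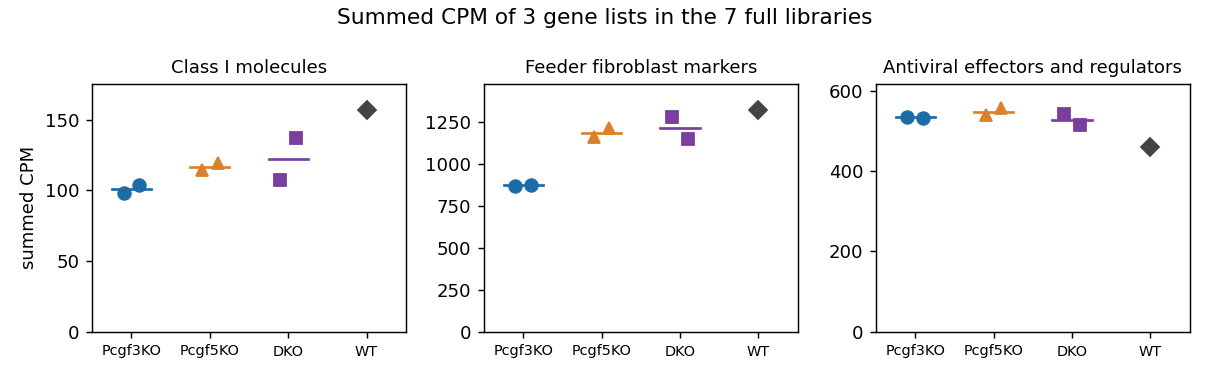
Summed CPM of the 3 class I molecules, the 23 feeder fibroblast markers and the 16 antiviral effectors and regulators in the 7 complete libraries, with a bar at the mean of 2 libraries. WT has the highest class I sum (156.5 CPM) and feeder sum (1323 CPM) and the lowest sum of effectors (460.6 CPM). Fn1 makes up most of each feeder sum.

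Between the knockouts, differences in these genes were few. In DKO against Pcgf3KO 0 of 27 genes passed with edgeR and 0 with DESeq2, where 1.74% of all genes passed with edgeR (0.734% higher, 1% lower), and 4 reached an unadjusted p of 0.05, as did 18.2% of all genes. Those 4 were Ddx58, H2-K1 (0.39 ± 0.11, edgeR adjusted p = 0.127), H2-D1 (0.38 ± 0.15, edgeR adjusted p = 0.236) and Ifit1 (1.55 ± 0.52, edgeR adjusted p = 0.173). In DKO against Pcgf5KO 1 of 27 was lower (Ddx58) and 0 higher, where 2.28% of all genes passed (0.996% higher, 1.28% lower), and 4 reached an unadjusted p of 0.05, as did 25.8% of all genes. In Pcgf5KO against Pcgf3KO 0 of 27 passed with edgeR and 0 with DESeq2, where 0.14% of all genes passed with edgeR (0.0893% higher, 0.0511% lower), and 2 reached an unadjusted p of 0.05 (H2-K1 and Ifit1), as did 8.5% of all genes. Each of these 3 counts at an unadjusted p is a smaller share of the 27 genes than that of all genes. The median log2 fold change over the 27 genes was 0.17, -0.01 and 0.09 in these 3 comparisons, against 0.01, 0.01 and 0.00 over all genes.

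The rest of the pathway was examined through 5 further lists of genes, chosen with earlier results known. Of 14 interferon receptor and signalling genes tested, only Tyk2, a kinase of the interferon receptor, passed against WT. It had 68.5 and 73.3 CPM in Pcgf3KO, 60.7 and 59.2 CPM in Pcgf5KO, 55.6 and 56.9 CPM in DKO, and 44.2 CPM in WT, and it rose in Pcgf3KO (0.68 ± 0.11, edgeR adjusted p = 0.0134). Ifnar1, a chain of the type I interferon receptor, lay between 73.6 and 89.3 CPM. None of 17 sensing and adaptor genes, 17 other class I presentation genes and 5 class II presentation genes passed against WT with edgeR, in any knockout. At an unadjusted p of 0.05 there were 0, 3 and 3 of the sensing and adaptor genes in Pcgf3KO, Pcgf5KO and DKO, 1, 3 and 2 of the other class I genes, and 1, 0 and 0 of the class II genes. Of all genes, 15.9%, 19.5% and 19.4% reached it in these groups.

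Among 33 other interferon-stimulated genes tested, 4 were higher in Pcgf3KO, 6 in Pcgf5KO and 5 in DKO. Of all genes tested, 1.08%, 1.31% and 1.33% were higher in these groups. None of the 33 was lower in any of the 3 knockouts, where 1.28%, 1.68% and 1.89% of all genes were lower. The median log2 fold change of the 33 was 0.30, 0.41 and 0.42, against 0.002, 0.005 and 0.014 over all genes. At an unadjusted p of 0.05 there were 16, 17 and 12 of the 33, where 15.9%, 19.5% and 19.4% of all genes reached it. The genes that passed were Lgals9, Ifitm3, Ifitm1 and Oas1g in Pcgf3KO. In Pcgf5KO they were the same 4 genes with Ube2l6 and Parp12, and in DKO Lgals9, Ube2l6, Oas1g, Oasl1 and Rnf213. Of these, Ifitm1, Oas1g, Parp12, Oasl1 and Rnf213 are named after their values were seen.

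Lgals9, which encodes galectin-9, had 32.3 and 33.6 CPM in Pcgf3KO, 28.4 and 29.1 CPM in Pcgf5KO, 22.1 and 21.4 CPM in DKO, and 11.6 CPM in WT. It rose in all 3 knockouts, by 1.51 ± 0.14 in Pcgf3KO, 1.31 ± 0.14 in Pcgf5KO and 0.91 ± 0.13 in DKO on the log2 scale (edgeR adjusted p = 0.000982, 0.00198 and 0.00842). As for Ddx58, both DKO libraries lay below all 4 single knockout libraries.

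WT replicate 1 lists Lgals9 too. Scaled to the genes of all 8 tables it had 181.9 and 189.6 CPM in Pcgf3KO, 159.4 and 162.9 CPM in Pcgf5KO, 125.1 and 121.0 CPM in DKO, and 90.3 and 65.2 CPM in WT. All 6 knockout libraries lay above both WT libraries. With 8 libraries the DKO level of Lgals9 lay below the sum of the single changes (-1.64 ± 0.20, edgeR adjusted p = 0.00139). In a fit added after the data were seen, the rise passed in all 3 knockouts with 8 libraries and was smaller, at 1.25 ± 0.14 in Pcgf3KO, 1.05 ± 0.14 in Pcgf5KO and 0.66 ± 0.14 in DKO (edgeR adjusted p = 0.000390, 0.00151 and 0.0175). Rnf213, a large ubiquitin ligase, is also listed there, and its rise in DKO was 0.86 ± 0.15 with 7 libraries and 0.95 ± 0.12 with 8 (edgeR adjusted p = 0.0213 and 0.00103).

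Ube2l6, which encodes the conjugating enzyme for Isg15, had 5.89 and 6.54 CPM in Pcgf3KO, 21.2 and 21.4 CPM in Pcgf5KO, 15.0 and 17.4 CPM in DKO, and 7.29 CPM in WT. It rose in Pcgf5KO (1.55 ± 0.18, edgeR adjusted p = 0.00317) and in DKO (1.15 ± 0.18, edgeR adjusted p = 0.0105). Ifitm3, which blocks viral entry, had 104.7 and 104.1 CPM in Pcgf3KO, 105.9 and 105.5 CPM in Pcgf5KO, 74.3 and 71.8 CPM in DKO, and 74.8 CPM in WT. It rose in Pcgf3KO (0.48 ± 0.09, edgeR adjusted p = 0.0336) and Pcgf5KO (0.50 ± 0.10, edgeR adjusted p = 0.0285), and the DKO libraries lay just below the WT library. Tor3a and Pml passed with 7 libraries between knockouts and not against WT: Tor3a was lower in DKO than in Pcgf3KO (-0.60 ± 0.09, edgeR adjusted p = 0.0144) and Pcgf5KO (-0.47 ± 0.09, edgeR adjusted p = 0.0373), and Pml was lower in DKO than in Pcgf5KO (-0.46 ± 0.07, edgeR adjusted p = 0.0206). With 8 libraries Pml, which encodes the organiser of nuclear bodies, was also higher in Pcgf5KO than in WT (0.33 ± 0.07, edgeR adjusted p = 0.0183), where the value with 7 libraries was 0.37 ± 0.09 (edgeR adjusted p = 0.0557). Its DKO level lay below the sum of the single changes with 8 libraries (-0.56 ± 0.10, edgeR adjusted p = 0.00904).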

How the data were processed

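The deposited files are whole-number read counts per Ensembl gene, 1 table a library, per the file headers. TopHat2 2.0.12, Cufflinks 2.2.1, HTSeq 0.6.0 and build mm10 are named, per the submitters' processing notes, and no role is stated for any of them. Which annotation and strand option the counting used is not given in the sources used here. No entry named no gene (0 of them). WT replicate 1 lists 8093 of 47069 genes (3459002 counts), and genes it does not list were treated as not measured. Symbols, exon lengths and overlaps came from GENCODE M21, which matched 46488 identifiers.

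Differences were tested with edgeR 4.0.16 in R 4.3.3 (quasi-likelihood, TMM, filterByExpr, group as the only term), in 1 fit of 7 libraries with 3 residual degrees of freedom. The 1 WT library is assumed to vary like the others. The filter left 15669 genes. P-values were adjusted by Benjamini-Hochberg across those 15669 genes, and a gene passed at 0.05 or less. The ± beside a fold change is the SE. Levels are CPM on TMM-scaled totals, and fold changes of the 34 genes are given where the unadjusted p was at most 0.05 in some comparison. The fits were tested on simulated data. Alternatives were DESeq2 1.42.0, RLE size factors, no filter, a replicate block, 8 libraries and each library left out; the 8-library fit with a library left out and the test of non-additivity were added after seeing the data.

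The 34 genes and all lists were chosen with earlier results of these data known. The text names all 34 genes, Pcgf3 and Pcgf5, and of each further list those that passed in any of 6 comparisons, at most 5 by smallest p; other names were chosen after their values were seen.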

Additional observations from a re-analysis of the deposited data

Results flagged for a closer look

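For Ddx58, the effect of Pcgf3 loss in Pcgf5KO cells minus its effect in unedited cells was -0.99 on the log2 scale (edgeR adjusted p = 0.00821). It was flagged because the change against the matching unedited or Pcgf5KO cells differed between the 2 backgrounds in a direct test. The level was 60.1 and 62.8 CPM in DKO, 86.8 and 79.2 CPM in Pcgf5KO, 75.5 and 78.0 CPM in Pcgf3KO and 52.2 CPM in WT, where WT is 1 library.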

How the results depend on the processing

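No fitted fold change turned its direction under any alternative, among the 66 gene results with an unadjusted p of at most 0.05; of their 654 values, 496 kept their side of the threshold, 116 passed it newly and 42 no longer passed. The number of the 34 genes past the threshold moved more. With DESeq2 it was 3 in Pcgf3KO, 1 in DKO and 3 for non-additivity. With no filter on low counts it was 5 in Pcgf3KO, 5 in Pcgf5KO, 2 in DKO against Pcgf3KO, 2 in DKO against Pcgf5KO and 5 for non-additivity. RLE size factors moved none of the 7 counts. The replicate numbers do not pair the libraries (correlations of their deviations -0.034, 0.179 and 0.027). With a replicate block the count was 2 in Pcgf3KO, 2 in Pcgf5KO, 0 in DKO, 2 in DKO against Pcgf5KO and 4 for non-additivity, and the block moved the adjusted p of Oas1a and B2m in DKO to 0.0631 and 0.0514. Leaving out 1 library at a time gave 0 to 13 genes in Pcgf3KO, 0 to 14 in Pcgf5KO, 0 to 13 in DKO, 0 to 8 in DKO against Pcgf3KO, 0 to 8 in DKO against Pcgf5KO, 0 to 2 in Pcgf5KO against Pcgf3KO and 0 to 14 for non-additivity. The upper ends came without a DKO library, and the cause was not tested. Limits: WT is 1 library for 30 genes, and 7 of the 34 genes were too low to test.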
